A study of Mus musculus with 6 samples.

Results

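Mature dendritic cells (DC) marked by Ccr7, Fscn1 and Ccl22 made up 98 of the 22163 cells kept from 6 mouse rhabdoid tumors. They were chosen by detected transcripts, counted as unique molecular identifiers (UMIs). A kept cell had 200 or more genes and no more than 25% mitochondrial UMIs, and a member had at least 1 UMI of 2 or more of the 3 genes. A member also had fewer than 20 UMIs of the complement genes C1qa, C1qb and C1qc per 10000 UMIs and no UMI of Cd3d, Cd3e or Cd3g. Levels of these genes therefore describe the choice of cells and were not tested. On GRCm38 with GENCODE M21, Ccr7 lies at chr11:99144196-99155077 (− strand), Fscn1 at chr5:142960343-142973185 (+ strand) and Ccl22 at chr8:94745590-94751699 (+ strand).

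The tumors are 3 MYC spinal tumors and 3 extracranial rhabdoid tumors (eRT), each of 1 animal, numbered 1 to 3 within the type and sequenced as 1 droplet library. All 6 mice had both alleles of Smarcb1, which encodes part of the SWI/SNF chromatin remodeler, flanked by loxP sites, and tamoxifen (50 mg/kg) was given once to the pregnant dam at embryonic day 6.5 to switch on Cre. The strain was Rosa26-cre, with an inducible Cre under a ubiquitous promoter, for the 3 MYC spinal tumors and eRT 1, and Sox2-cre, with an inducible Cre under the promoter of Sox2, a gene of early embryonic and neural progenitor cells, for eRT 2 and 3, so that tumor type and Cre driver cannot be fully told apart. The mice with MYC spinal tumors were 19, 26 and 17 weeks old, and those with eRT 17, 29 and 22 weeks old, per the labels, and for eRT 1 the study's supplement gives a different age. The eRT lay at a gland, the jaw and the shoulder.

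Immature DC take up material in tissue, and after a maturation signal they lose much of that uptake, raise costimulatory molecules and migrate to draining lymph nodes. Ccr7 is the chemokine receptor that guides this migration, Fscn1 bundles the actin of their dendrites, and Ccl22 attracts T cells that carry Ccr4. In tumors, mature DC with this signature are known to carry both immunostimulatory genes, such as Cd40 and Il12b, and genes that restrain T cells, such as Cd200 and the PD-1 ligands.

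NF-kB factors drive much of DC maturation, and Nfkb2 and Rel, the genes of an NF-kB subunit each, were among the genes that passed the test against conventional DC (values below). Both entered that test through their counts in mature DC, so their being higher is a description. Promoter sequence of both is shown because each holds letters of the kappaB consensus, the motif that NF-kB dimers bind. The windows are from the RefSeq table for GRCm38.p6, read 5′ to 3′ on the strand of the gene, with the matches in capitals. Nfkb2 (chr19:46304678-46304736, + strand) has 3 matches, of which the first pair overlap, starting 39 to 11 bases before the transcription start. Rel (chr11:23771031-23771081, − strand) has 2 overlapping matches, which start 92 and 91 bases before it.
Nfkb2: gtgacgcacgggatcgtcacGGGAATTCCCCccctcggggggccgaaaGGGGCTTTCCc
Rel: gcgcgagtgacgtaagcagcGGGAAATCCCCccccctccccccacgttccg
Searched on both strands in the 250 bases before the start, the kappaB consensus was found in 2382 of 32851 promoters (7.25%). A count over the genes that rose was void, since 76 of 97 had an entry in the table. A match describes letters only.

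The 98 members were spread unevenly. MYC spinal 1, 2 and 3 held 7, 4 and 22, and eRT 1, 2 and 3 held 3, 55 and 7. The members together carried 291315 UMIs, with a median of 2300.5 a cell, and per tumor 26228, 4843, 71331, 31004, 146432 and 11477 in the same order. All 3 genes were detected in 43 members, Ccr7 and Fscn1 alone in 37, Ccr7 and Ccl22 alone in 14, and Fscn1 and Ccl22 alone in 4. Just outside the limits lay 2 cells left out by C1q alone, with 68.2 and 159.6 C1q UMIs per 10000 (the highest member had 8.33), 24 left out by Cd3 alone, and 1497 cells with 1 of the 3 genes. The rule needs UMIs to be seen, so it finds members more readily in deep cells.

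The label was checked on 11 marker genes of mature DC that the rule did not use (Relb, Cd40, Ccl17, Il4i1, Cacnb3, Nudt17, Samsn1, Tbc1d4, Socs2, Apol7c and Tmem150c). The markers were chosen with earlier results of these data known, so the check is not an independent one. At least 3 of the 11 were detected in 82 of 98 members (83.7%), in 2 of 75 conventional DC (2.67%) and in 45 of 5557 complement-high macrophages (0.810%). Median UMIs per cell were 2300.5, 2774 and 2469, so the depths were close. In cells thinned to 1000 UMIs the shares were 61 of 94 members (64.9%), 1 of 70 conventional DC (1.43%) and 0 of 5518 macrophages, which allows a share of up to 0.0544%. Of the 43 members with all 3 rule genes 41 had 3 or more of the 11, and of the 55 members with exactly 2 it was also 41. Among the 1497 cells with 1 rule gene, which had a median of 5484 UMIs, 34 did. Conventional DC were cells with at least 2 of Flt3, Zbtb46, Clec9a, Xcr1, Cd209a, Clec10a and Batf3 and fewer than 2 of the rule genes, and complement-high macrophages had UMIs of all 3 C1q genes at 20 or more per 10000, both without Cd3.

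Some members carried transcripts of other cells. In 8 members, 1 in MYC spinal 1, 5 in MYC spinal 3 and 2 in eRT 1, there were 10 or more UMIs of osteoclast genes (up to 232) or of rhabdoid tumor genes (up to 29). These 8 had a median of 8625 UMIs and of 1.5 of the 11 markers, against 2123.5 UMIs and 5 markers in the other 90. Hemoglobin UMIs were found in 11 of the 55 members of eRT 2, where they made up 3.57% of all UMIs and 2894 of 5223 came from 1 cell. Neutrophil genes gave 398 UMIs in 58 members, up to 114 in 1 cell. Beyond the Cd3 genes, 7 T cell genes gave 34 UMIs in 25 members. Natural killer and B cell genes gave 1 UMI each and mast cell genes none. Macrophage genes other than C1q summed to between 0 and 1064 counts per 1000000 (CPM) in the members of a tumor, against 5086 to 83416 CPM in the macrophages. A doublet caller marked 17 of 22163 cells and no member, too few to have worked. Column names in the tables were renumbered, so barcodes shared between libraries could not be counted. Results are given below with and without the 8 cells where that changes a call.

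Smarcb1 was seen in members as 14 UMIs, a level of 48.1 CPM (95% Poisson interval 26.3 to 80.6), against 38.0 CPM over all other kept cells. The libraries read the 3′ end of transcripts, and where the floxed part lies is not given in the sources used here, so this level does not check the deletion.

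**Figure D1:**
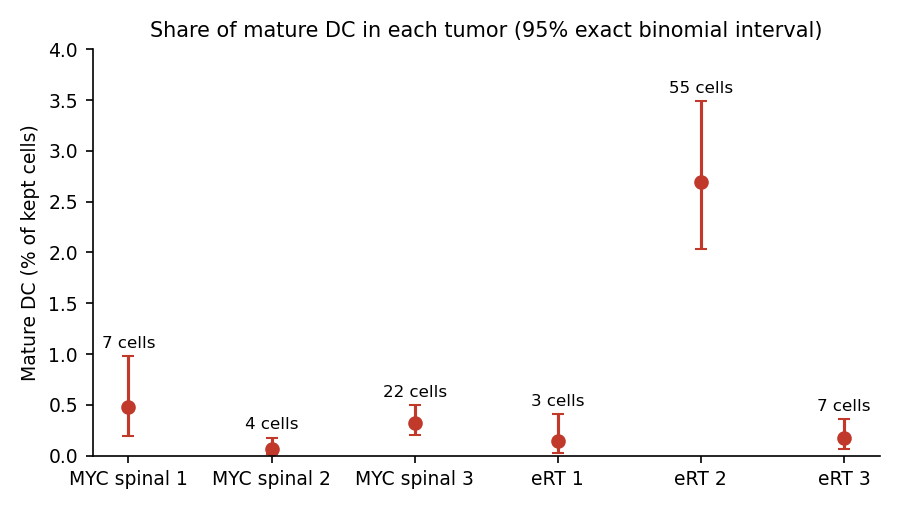
Share of mature DC among the kept cells of each tumor, in percent, with exact binomial 95% intervals and the number of member cells above each point. eRT 2 lay at 2.69%, and the other 5 tumors between 0.0696% and 0.477%.

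The share of mature DC among kept cells was 0.477% (exact binomial 95% interval 0.192 to 0.979) in MYC spinal 1, 0.0696% (0.0190 to 0.178) in MYC spinal 2 and 0.326% (0.205 to 0.494) in MYC spinal 3. It was 0.140% (0.0289 to 0.409) in eRT 1, 2.69% (2.04 to 3.49) in eRT 2 and 0.174% (0.0700 to 0.358) in eRT 3. One tumor stood above all others, and the remaining eRT lay within the range of the MYC spinal tumors. The mean was 1.0% ± 1.46 (SD, n = 3) in eRT and 0.291% ± 0.206 (SD, n = 3) in MYC spinal tumors, a difference of 0.712 points that did not pass the exact two-sided permutation test (p = 0.8, where the smallest p of 3 against 3 tumors is 0.1). Without eRT 2 the difference turned to -0.134 points. The intervals cover counting error only, and tumors were dissociated and sorted for living cells before capture. Set beside conventional DC, the members numbered 7 to 14, 4 to 13 and 22 to 10 cells in the MYC spinal tumors and 3 to 1, 55 to 30 and 7 to 7 in the eRT, both rules resting on detected genes.

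The members were next compared with the conventional DC of the same tumor, the question being what sets the mature state apart. For each tumor the UMIs of all cells of a kind were added up, and the 4 tumors with at least 5 cells of each kind entered: MYC spinal 1 and 3 and eRT 2 and 3. Values of 4 tumors below are CPM in that order. The quasi-likelihood test of edgeR, with tumor as a block, called 185 of 1011 genes at an adjusted p of 0.05. Of all genes tested, 97 (9.59%) were higher and 88 (8.70%) lower in mature DC, which is the background for the counts that follow. The median log2 fold change of all genes was -0.11. Calls in the maturation, regulatory, migration and NF-kB lists were all higher, and those in the MHC class II list all lower, though not every gene of these lists passed. A gene rare in conventional DC passed the filter on low counts only if it was high in mature DC. A gene rare in mature DC passed only if it was high in conventional DC. For such genes the direction was largely set by the filter, so their values and adjusted p, like the lists' counts, are given as descriptions.

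**Figure D2:**
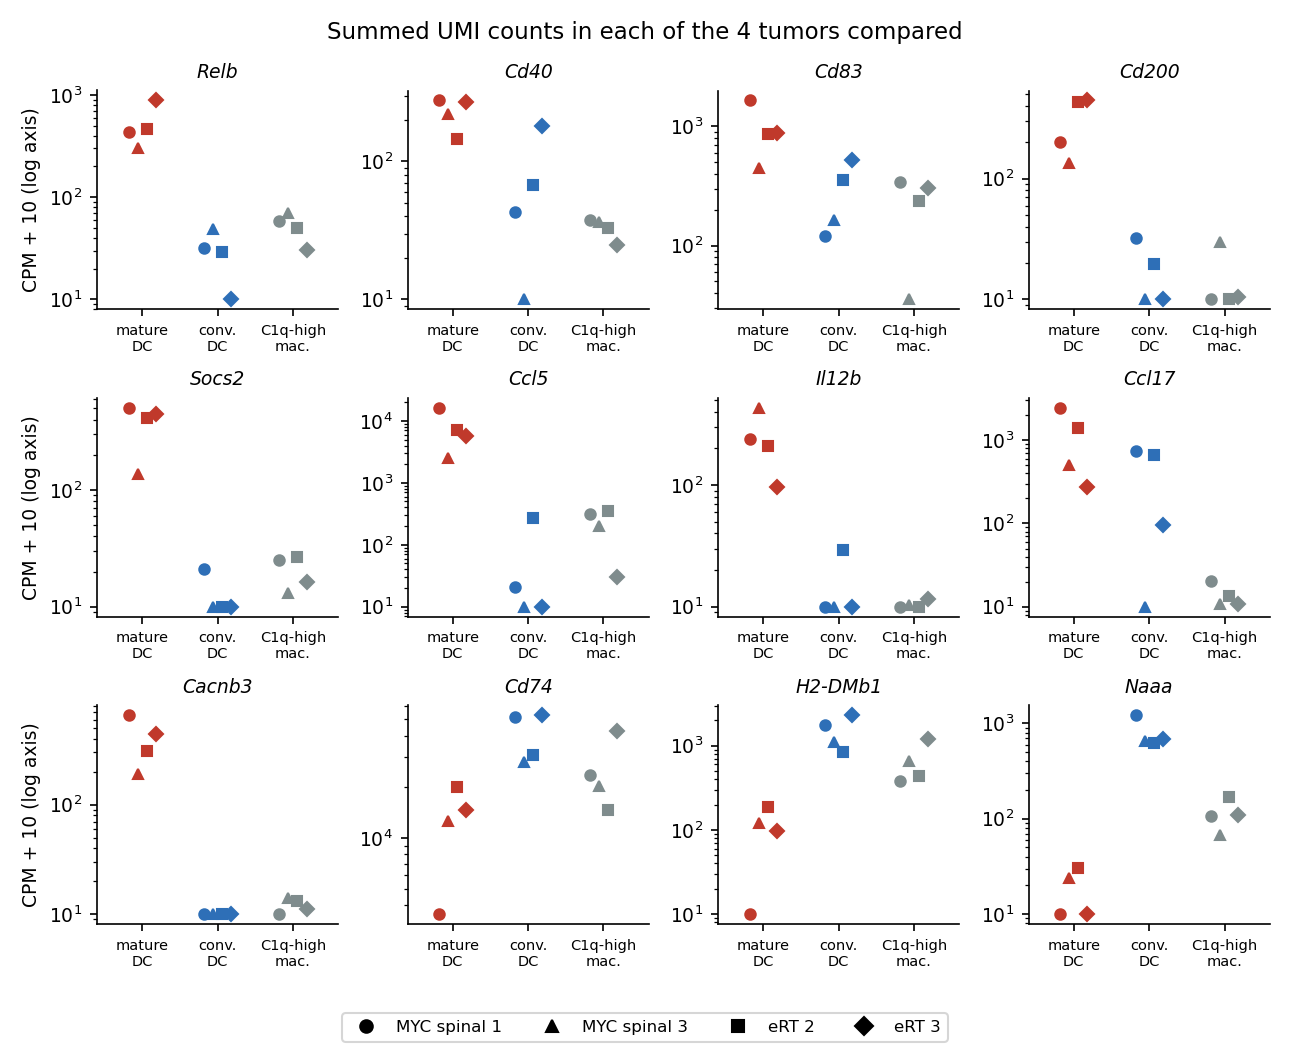
CPM plus 10 on a log axis of 12 genes in mature DC, conventional DC and complement-high (C1q-high) macrophages, a symbol for each of the 4 tumors compared. For Relb, Cd200, Socs2, Ccl5, Il12b and Cacnb3 all 4 tumors were higher in mature DC than in either other kind, and for Cd74, H2-DMb1 and Naaa all 4 were lower than in conventional DC.

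Costimulation and maturation genes were higher in 4 of 8 tested and lower in none, with a median log2 fold change of 1.92. Relb, the NF-kB subunit of the noncanonical pathway, had 419, 294, 458 and 871 CPM in mature DC and 22.1, 38.3, 19.0 and 0 CPM in conventional DC. Every mature value lay above every conventional one (log2 fold change 4.18 ± 0.55 (SE), adjusted p = 6.64e-05). Cd83, a surface protein that stabilizes MHC class II, had 1639, 435, 860.5 and 871 against 110.3, 153, 343 and 512 CPM, and the ranges overlapped while each tumor moved upward (log2 fold change 1.92 ± 0.42 (SE), adjusted p = 0.00404). Cd40, the receptor for the T cell ligand CD40L, had 267, 210.3, 137 and 261 against 33.1, 0, 57.1 and 171 CPM (log2 fold change 1.92 ± 0.65 (SE), adjusted p = 0.0476), and its call was lost without either MYC spinal tumor (adjusted p = 0.0881 without number 1 and 0.114 without number 3). Icam1, an adhesion molecule of the DC and T cell contact, was higher by a log2 fold change of 2.29, with no overlap. Cd80, Cd86, Tnfsf9 and Cd48 did not pass, with log2 fold changes of 2.42, 0.91, 0.24 and -1.14.

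Of 14 regulatory genes 3 could be tested, Socs2, Il4i1 and Cd200. They passed the filter on low counts through the mature DC, so that their being higher was largely set by the filter, and their values are a description. Socs2, a suppressor of cytokine signaling, had 496, 126, 403 and 436 CPM in mature DC and 11, 0, 0 and 0 CPM in conventional DC, where 1 UMI was seen. Pooled over the 4 tumors, that is a ratio of 78.6 (95% interval 13.7 to 3142), with edgeR's adjusted p = 5.34e-05. Il4i1, a secreted amino acid oxidase that depletes T cells of phenylalanine, had 229, 364, 840.0 and 349 against 0, 0, 85.7 and 0 CPM (log2 fold change 3.87 ± 0.57 (SE), adjusted p = 0.000140). Cd200, the ligand of an inhibitory receptor on myeloid cells, had 191, 126, 423 and 436 against 22.1, 0, 9.52 and 0 CPM, a pooled ratio of 24.7 (95% interval 8.15 to 122) with adjusted p = 0.000492. For these genes no mature value lay within the range of the conventional DC. Il4i1 was detected in 59 of 98 members (60.2%) and Cd200 in 40 (40.8%), against 1.64% and 1.46% of macrophages, and after thinning to 1000 UMIs in 42.6% and 26.6% of members against 0.580% and 0.471% of macrophages. Both were detected in 26 members and neither in 25.

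Of the chemokine and cytokine list, 3 of 6 tested genes were higher and none lower. Ccl5, a chemokine that attracts T cells and monocytes, had 16280, 2467, 7171 and 5751 CPM in mature DC and 11, 0, 257 and 0 CPM in conventional DC (log2 fold change 6.60 ± 0.62 (SE), adjusted p = 2.7e-06). MYC spinal 1 was highest and MYC spinal 3 lowest among the mature values, all of which lay above the conventional ones. Il12b, the p40 subunit of interleukin-12 and interleukin-23, had 229, 421, 198 and 87.1 against 0, 0, 19.0 and 0 CPM, a pooled ratio of 30.2 (95% interval 8.03 to 254) over 66 and 2 UMIs (adjusted p = 0.00102). Il12b passed the filter on low counts through the mature DC, so its being higher is a description. Ccl17, a Ccr4 ligand like Ccl22, had 2440, 491, 1373 and 261 against 728, 0, 647 and 85.3 CPM (log2 fold change 1.64 ± 0.40 (SE), adjusted p = 0.00865). Its ranges overlapped, and without the tumor block the call was lost (adjusted p = 0.393). Il1b, Ccl3 and Ccl4 had log2 fold changes of -1.31, -0.81 and -1.38 and did not pass (adjusted p = 0.0569, 0.470 and 0.152).

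Among the 98 members, pooled over tumors, Ccl5 was detected in 70 members, Ccl17 in 31 and Il12b in 19, and both Ccl17 and Il12b in 4, in counts too sparse to tell separate cells from missed transcripts. In macrophages Ccl5 was detected in 5.90% of cells, Ccl17 in 0.234% and Il12b in 0.198%. Thinned to 1000 UMIs, the members' shares were 61.7%, 27.7% and 14.9%, against 3.10%, 0.109% and 0.127% of macrophages. Ccl22, a rule gene, shared 27 of its 61 cells with Ccl17.

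Migration and cytoskeleton genes were higher in all 6 tested of the list of 16, with a median log2 fold change of 2.75. Tmem123, a membrane mucin of migrating DC, had 1601, 519, 1345 and 2701 CPM in mature and 66.2, 0, 85.7 and 256 CPM in conventional DC (log2 fold change 4.09 ± 0.39 (SE), adjusted p = 2.7e-06). Samsn1, a cytoskeletal adaptor, had 991, 168, 1414 and 871 against 11, 38.3, 199.9 and 85.3 CPM. Its mature value in MYC spinal 3 lay below the conventional value of eRT 2, while each tumor moved upward (log2 fold change 3.48 ± 0.49 (SE), adjusted p = 0.000103). Marcks and Marcksl1, related actin regulators, differed by log2 fold changes of 2.15 and 2.68, Myo1g, a myosin of blood cells, by 2.82, and Cxcl16, a membrane-bound chemokine, by 1.64. Marcksl1 lost its call without the block (adjusted p = 0.0647), and Cxcl16 without eRT 2 (adjusted p = 0.0879).

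NF-kB and survival genes were higher in 5 of 7 tested. Nfkb2 had 267, 112, 219 and 261 CPM in mature DC and 0, 76.6, 19.0 and 0 CPM in conventional DC, so that no mature value fell within the conventional range (log2 fold change 3.32 ± 0.85 (SE), adjusted p = 0.0100). Rel had 343, 379, 580.5 and 261 against 55.1, 38.3, 171 and 171 CPM, again with no overlap (log2 fold change 1.99 ± 0.43 (SE), adjusted p = 0.00369). In eRT 3, 3 UMIs amount to 261 CPM in mature and 256 CPM in conventional DC. The values of both genes in that tumor, and with them the separation of Rel, rest on 3 UMIs or fewer. Nfkb2 and Rel passed the filter on low counts through the mature DC, so their being higher is a description. These are the genes whose promoter letters are printed above. Traf1, an adaptor of TNF receptors, had 572, 350.5, 854 and 784 against 33.1, 76.6, 362 and 0 CPM, and its call was lost without the block (adjusted p = 0.0886). Bcl2a1b and Bcl2a1d, copies of an antiapoptotic gene whose reads are hard to assign to a copy, differed by 1.98 and 1.51, the second losing its call without eRT 2 (adjusted p = 0.115). Nfkbia and Nfkbib, inhibitors of NF-kB, did not pass, at 0.72 and 0.79.

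**Figure D3:**
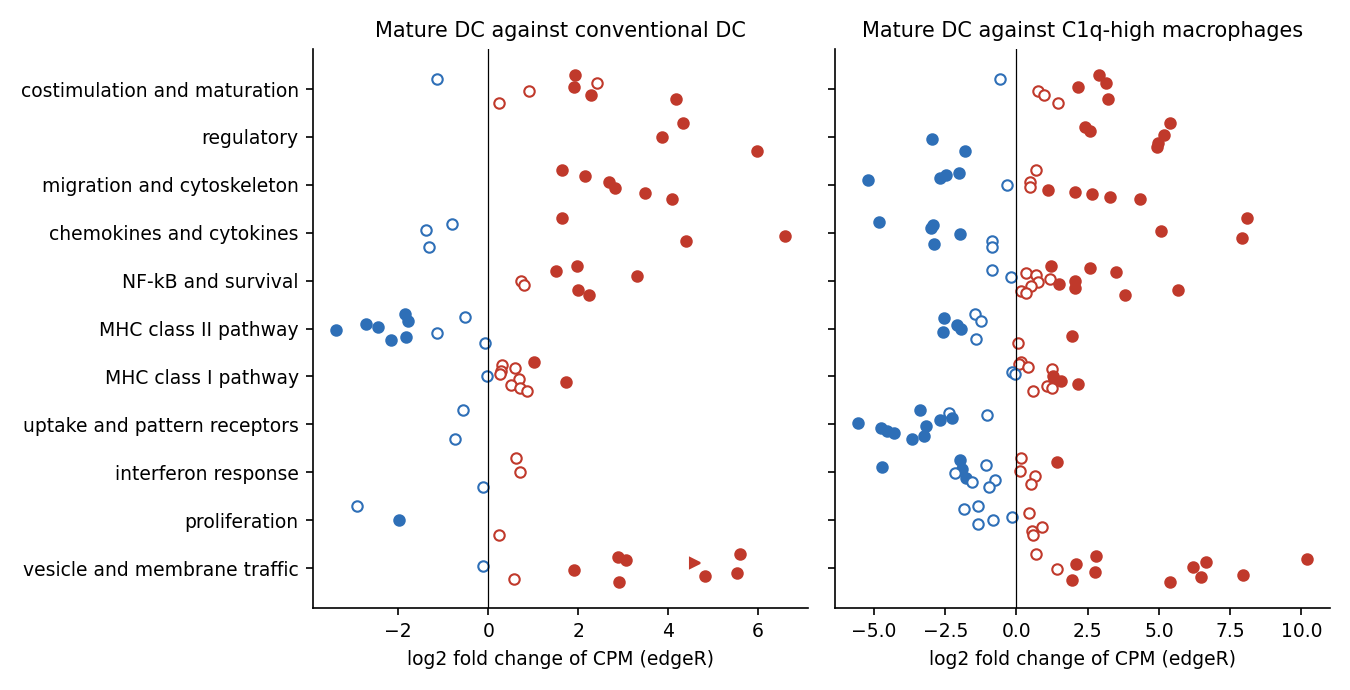
log2 fold change in mature DC of each tested gene of 11 lists, against conventional DC (left) and complement-high macrophages (right). Filled points passed edgeR's adjusted p of 0.05, open points did not, red is higher and blue lower, vertical spread within a list only separates points, and the triangle is the lower bound of Cacnb3, which had no UMI in conventional DC. Against conventional DC all 7 called MHC class II genes were lower and all called NF-kB, migration and regulatory genes higher.

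Genes of vesicle and membrane traffic were taken up for their known place in the mature DC signature, and some, such as Cacnb3, Serpinb6b and Anxa3, passed the filter on low counts through the mature DC alone. That 8 of 10 tested were higher is therefore a description of the list. Cacnb3, a calcium channel subunit, had 648, 182, 300.5 and 436 CPM, and with 0 UMIs in the conventional DC of the 4 tumors it was at least 24.1-fold higher, measured against 3 UMIs over the group. Its adjusted p was 0.000103. Serpinb6b and Serpinb9, protease inhibitors, the latter a granzyme B inhibitor, had 1182, 449, 328 and 958 and 1258, 196, 314 and 871 CPM in mature DC. In conventional DC Serpinb6b had 3 UMIs, a pooled ratio of 37.2 (95% interval 12.4 to 183), and Serpinb9 had 44.1, 0, 9.52 and 0 CPM (log2 fold change 4.81 ± 0.54 (SE), adjusted p = 1.16e-05). Anxa3, an annexin, had 305, 238, 300.5 and 958 against 0, 38.3, 0 and 0 CPM, a pooled ratio of 73.1 (95% interval 12.8 to 2925) over 80 and 1 UMIs. It does not set members apart from macrophages, being detected in 48.0% of members and 46.0% of macrophages (edgeR log2 fold change 0.69, adjusted p = 0.339). Tbc1d4, Rogdi, Bcl2l14 and Arl5c were also higher, by log2 fold changes of 2.92, 1.91, 3.07 and 2.89. Without eRT 2 Tbc1d4 lost its call (adjusted p = 0.0639). Cst3 and Syngr2 did not pass, at -0.11 and 0.58.

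Among the 10 genes with the largest rise that moved the same way in all 4 tumors, some belonged to none of these lists. Fabp5, a fatty acid binding protein, had 1220, 3266, 3524 and 3659 CPM in mature and 22.1, 229.7, 181 and 85.3 CPM in conventional DC (log2 fold change 4.46 ± 0.34 (SE), adjusted p = 1.96e-07), with no overlap. It was detected in 69 of 98 members (70.4%) and in 24.4% of macrophages, and after thinning in 62.8% and 13.8%. Ccl5 and Fabp5 were both detected in 54 members. Slc27a3, a fatty acid transport protein, had 229, 14.0, 68.3 and 349 CPM and no UMI in conventional DC, at least 6.40-fold higher (adjusted p = 0.0157). Zmynd15, a zinc finger gene, had 572, 224, 300.5 and 1220 against 22.1, 0, 9.52 and 0 CPM, a pooled ratio of 27.1 (95% interval 8.99 to 134) with adjusted p = 3.43e-05. Slc27a3 and Zmynd15 passed the filter on low counts through the mature DC, so their being higher is a description. Zmynd15 was also detected in 27.8% of macrophages, against 39.8% of members, with pooled levels of 227 and 309 CPM. Hemoglobin genes, 4 of 4 tested, were also called higher, for example Hbb-bs with 0, 0, 19299 and 0 against 11, 0, 4017 and 0 CPM. Among the 4 tumors compared, the mature values above 0 lay in eRT 2 alone, and under DESeq2 Hbb-bs did not pass (adjusted p = 0.990). Reads of Hba-a1 and Hba-a2, near-identical copies, are uncertain. The osteoclast gene Acp5 was called too, with 0, 1626, 102 and 0 against 22.1, 498, 0 and 0 CPM (adjusted p = 0.0460), and lost its call without eRT 2 (adjusted p = 0.293).

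Genes of MHC class II antigen presentation were lower in 7 of 10 tested and higher in none, with a median log2 fold change of -1.84. H2-DMb1, part of the peptide loading protein H2-M, had 0, 112, 178 and 87.1 CPM in mature DC and 1731, 1110, 838 and 2302 CPM in conventional DC (log2 fold change -3.39 ± 0.48 (SE), adjusted p = 0.000103). Its partner H2-DMa had 0, 364, 369 and 87.1 against 1731, 1034, 1066 and 1961 CPM (log2 fold change -2.46 ± 0.51 (SE), adjusted p = 0.00251). For both, the highest mature value was under the lowest conventional one. Cd74, the invariant chain, had 3546, 12589, 19804 and 14638 against 51307, 27832, 30908 and 52865 CPM (log2 fold change -1.84 ± 0.46 (SE), adjusted p = 0.00865). H2-Ab1, a class II beta chain, had 38.1, 3603, 8181 and 3224 against 21028, 13170, 15154 and 22596 CPM (log2 fold change -2.72 ± 0.69 (SE), adjusted p = 0.00994), and MYC spinal 1 was lowest for both. H2-Aa and H2-Eb1 had log2 fold changes of -1.77 and -1.83, and their adjusted p of 0.0243 and 0.00928 became 0.0954 and 0.0603 without the 8 cells that carried osteoclast or tumor UMIs. H2-Oa, a modulator of peptide loading, fell by 2.15 with overlapping ranges (adjusted p = 0.0476). Its call was lost without the scaling by trimmed means (TMM, adjusted p = 0.0551), under DESeq2 (0.187) and with every gene kept (0.117). It was also lost with Ccr7 required (0.0956) and without the highest doublet scores (0.0865). Without the tumor block, Cd74, H2-Eb1, H2-Ab1 and H2-Aa no longer passed (adjusted p = 0.0805, 0.282, 0.167 and 0.343), and H2-DMa and H2-DMb1 still did. Without eRT 3 the same 4 genes also missed the threshold (0.0555, 0.0586, 0.0586 and 0.0637), and without eRT 2 H2-Aa did (0.0686). With all 3 rule genes required, 3 tumors entered, and these 4 genes and H2-Oa missed it (0.0812, 0.0748, 0.0748, 0.122 and 0.231). Their log2 fold changes were then -1.43, -1.43, -2.35, -1.60 and -1.63. H2-Aa also missed it under DESeq2 (0.0901) and without the highest doublet scores (0.0581).

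**Figure D4:**
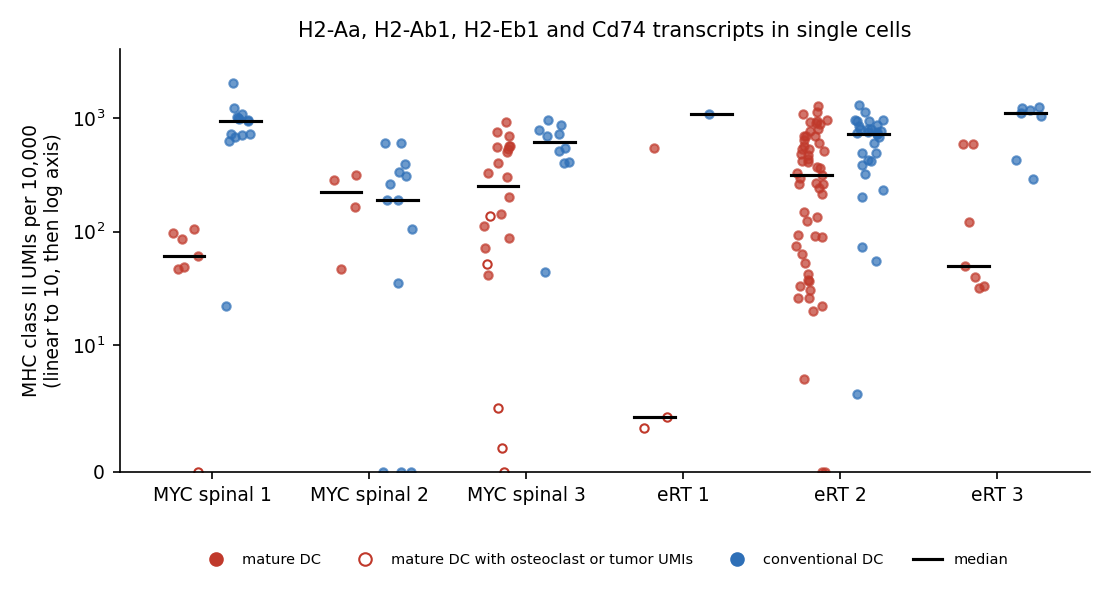
UMIs of H2-Aa, H2-Ab1, H2-Eb1 and Cd74 per 10000 UMIs of each mature DC (red) and conventional DC (blue), by tumor, on an axis that is linear to 10 and logarithmic above, with bars at the medians. Open points are the 8 mature DC with osteoclast or tumor UMIs, and in eRT 2 the members reached from 0 to 1281.

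Cell by cell, class II transcripts spread widely among members. H2-Aa, H2-Ab1, H2-Eb1 and Cd74 together made up a median of 61.0 UMIs per 10000 in MYC spinal 1 (range 0 to 105), 225 in MYC spinal 2 (47.4 to 313) and 251 in MYC spinal 3 (0 to 922). In eRT 1, 2 and 3 the medians were 4.36 (3.45 to 540), 317 (0 to 1281) and 49.9 (31.9 to 590). The conventional DC had medians of 946, 190, 614, 1077, 722 and 1091 in the same 6 tumors, above the members in all but MYC spinal 2. Under 100 per 10000 lay 38 of 98 members (38.8%), 31 of 90 without the 8 cells (34.4%) and 9 of 75 conventional DC (12%), a limit set after the values were seen. Low cells were found in every tumor, and in eRT 2 they made up 18 of 55.

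Markers of conventional DC varied in the members, some at or near 0 and others kept. The rule of the conventional DC used Flt3, Zbtb46, Clec9a, Xcr1, Cd209a, Clec10a and Batf3, so these are given without a test against them. Over all 98 members Clec9a and Cd209a had 0 UMIs, and Xcr1 and Clec10a 1 each, against 21, 8, 62 and 80 UMIs in 75 conventional DC. Flt3, the receptor for the DC growth factor, kept 31 UMIs in 27 members and Batf3, a transcription factor of the cDC1 lineage, 53 UMIs in 35 members, against 64 and 63 UMIs in conventional DC. Both were higher than in macrophages of the same tumor, by log2 fold changes of 6.46 and 2.74. Other genes of their lists were not. Against macrophages 5 general DC genes were tested, of which Flt3 was higher, H2-Ab1 lower and 3 not called. Of 5 cDC1 genes Batf3 was higher and Naaa, Ppt1 and Cadm1 lower. Of 6 cDC2 genes Tnip3 was higher and Itgam, Clec4a2 and Sirpa lower. Outside the rule, Naaa, a lysosomal amidase and cDC1 marker, had 0, 14.0, 20.5 and 0 CPM in mature and 1213, 651, 609 and 682 CPM in conventional DC (log2 fold change -5.39 ± 0.52 (SE), adjusted p = 2.7e-06). Plac8, a gene of monocytes and immature DC, had 153, 98.1, 88.8 and 0 against 2327, 536, 990.0 and 512 CPM (log2 fold change -3.42 ± 0.40 (SE), adjusted p = 1.72e-05). The ranges of both were apart. The conventional DC were chosen by the rule genes named above, so genes that go with these are favored by that choice. Naaa, with 6 UMIs over all members, passed the filter on low counts through the conventional DC, so its being lower is a description. Of the marker lists tested outside the rule against conventional DC, 4 of 4 general DC genes (the class II genes Cd74, H2-Eb1, H2-Ab1 and H2-Aa) were lower, 2 of 3 of cDC1 (Naaa and Ppt1) and 1 of 3 of cDC2 (Mgl2, a lectin).

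The rule on the largest falls named further genes. Alox5ap, which presents arachidonic acid to 5-lipoxygenase, had 38.1, 56.1, 137 and 0 against 1224, 1340, 1047 and 1364 CPM (log2 fold change -3.88 ± 0.43 (SE), adjusted p = 1.16e-05). Rnase6, a secreted ribonuclease, was seen with 2 UMIs in mature and 75 in conventional DC, a conventional to mature ratio of 41.0 (95% interval 11 to 345). Lat2, a membrane adaptor, was seen with 1 and 25 UMIs, a ratio of 27.3 (95% interval 4.48 to 1123). With the tumors left out included, Lat2 had 8 UMIs in 2 members (27.5 CPM) and 27 UMIs in conventional DC (105 CPM), a smaller difference. Plbd1, a lysosomal hydrolase, and Gm2a, a ganglioside activator protein, fell with Gpr171 and Ms4a6c, at log2 fold changes of -3.76, -3.20, -3.30 and -3.04. For all of these genes the highest mature value lay below the lowest conventional one over the tumors compared.

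In the remaining lists few genes passed. In the MHC class I pathway 2 of 11 tested genes were higher, Psme2, a proteasome activator subunit, by 1.72 and B2m, the light chain of class I, by 1.03, the latter losing its call without eRT 2 or 3 (adjusted p = 0.126 and 0.169). H2-K1 and H2-D1, the class I heavy chains, did not pass, at 0.60 and 0.31. None of the 2 uptake receptors and none of the 3 interferon response genes tested passed. Stmn1, a microtubule regulator of dividing cells, was lower with 76.3, 252, 13.7 and 0 against 187, 498, 228 and 85.3 CPM, the only call among 3 proliferation genes tested (adjusted p = 0.0202). It was lost under DESeq2 (adjusted p = 0.101), with every gene kept (0.143) and without the highest doublet scores (0.0581).

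The 185 calls depended most on eRT 2, which held 55 of the 91 members compared. Without it 475 genes could be tested and 61 were called, and without the other tumors 153 to 197. Without the block 63 were called, with cells thinned to 1000 UMIs 72 of 278 tested, and without the 8 cells 170, of which 111 were higher.

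Against complement-high macrophages of the same 4 tumors, mature DC differed in 647 of 3755 genes tested, of which 236 (6.28%) were higher and 411 (10.9%) lower. The median log2 fold change of all genes was -0.19. This comparison asks what separates the members from the most numerous phagocytes of these tumors. Without eRT 2 the count was 336 and without eRT 3 it was 426.

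Of the mature DC markers outside the rule 10 were tested and called higher than in macrophages, which the choice of the markers and the filter on low counts largely fixed, so the values below are a description. Ccl17 had 2440, 491, 1373 and 261 CPM in mature DC and 10.1, 0.793, 3.29 and 0.860 CPM in macrophages (log2 fold change 8.08 ± 0.61 (SE), adjusted p = 1.03e-24). Il12b had 229, 421, 198 and 87.1 against 0, 0.264, 0 and 1.58 CPM (log2 fold change 7.93 ± 0.70 (SE), adjusted p = 1.63e-19). Bcl2l14, a member of the Bcl2 family, had 267, 154, 246 and 1046 CPM and 3 UMIs in the macrophages of the 4 tumors, a pooled ratio of 987 (95% interval 323 to 4906). These 3 genes were at or near 0 in the macrophages of each tumor. Apol7c, an apolipoprotein L gene of cross-presenting DC, had 32 UMIs in the members of MYC spinal 3 and eRT 2 and 0 in macrophages, at least 478-fold higher against 3 UMIs over the group, and it did not pass DESeq2 (adjusted p = 0.131). Serpinb6b, Cacnb3, Serpinb9 and Gnb4, a G protein subunit, rose by log2 fold changes of 7.94, 6.64, 6.49 and 6.23, with no overlap between kinds. Tnfrsf18, the receptor GITR, and Ramp3, a receptor activity modifying protein, rose by 5.82 and 5.79.

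Regulatory genes split, 6 of 8 tested being higher and 2 lower. Cd200, Pdcd1lg2 and Cd274 passed the filter on low counts through the mature DC, so their being higher is a description. Socs2 and Il4i1 were rare in macrophages too, at 6.45 and 6.82 CPM pooled over all macrophages. Cd200 had 191, 126, 423 and 436 against 0, 20.1, 0 and 0.430 CPM in macrophages (log2 fold change 5.40 ± 0.63 (SE), adjusted p = 9.36e-13). The PD-1 ligand gene Pdcd1lg2 had 114, 28.0, 129.8 and 87.1 against 7.59, 1.06, 0 and 0.573 CPM (log2 fold change 4.98 ± 1.02 (SE), adjusted p = 5.42e-05), with all mature values above. The other PD-1 ligand gene, Cd274, had 38.1, 70.1, 253 and 0 against 35.4, 11.6, 23.1 and 2.87 CPM (log2 fold change 2.41 ± 0.57 (SE), adjusted p = 0.000575), with no UMI in the members of eRT 3 and nearly level values in MYC spinal 1. Socs2, Il4i1 and Fas rose by 4.93, 5.17 and 2.59, and Lgals9, a galectin, and Socs3 fell, at -2.96 and -1.81. Without eRT 2, Pdcd1lg2, Fas and Lgals9 no longer passed (adjusted p = 0.0506, 0.134 and 0.0827). Socs3 lost its call without MYC spinal 1 (0.0959), and Fas without eRT 3 (0.0570). Of costimulation genes 4 of 8 were higher (Relb, Cd40, Cd83 and Cd80, the last not without MYC spinal 1, adjusted p = 0.0718) and of NF-kB and survival genes 8 of 17, among them Traf1 at 3.80, Birc2, an inhibitor of apoptosis, at 3.50 and Stat4, a mediator of interleukin-12 signaling, at 5.68. Nfkb2, Nfkbib and Bcl2a1b, also among the 8, lost their calls without eRT 2 (adjusted p = 0.0551, 0.0957 and 0.419), and the last 2 also without MYC spinal 3 (0.0512 and 0.220). Bcl2a1b lost its call without eRT 3 too (0.0589).

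Chemokine and cytokine genes moved both ways, 3 of 10 tested being higher and 5 lower. Ccl5 had 16280, 2467, 7171 and 5751 against 301, 195, 346 and 19.9 CPM and rose with Ccl17 and Il12b (log2 fold change 5.09 ± 0.60 (SE), adjusted p = 1.46e-12). Ccl2, a monocyte attractant, had 0, 42.1, 41.0 and 87.1 against 891, 276, 2177 and 770.0 CPM and fell in all 4 tumors (log2 fold change -4.82 ± 0.63 (SE), adjusted p = 1.83e-10). Ccl3 and Ccl4, inflammatory chemokines, also fell (log2 fold changes of -2.92 and -3.00), as did Tgfb1 (-2.90) and Cxcl10, an interferon-induced chemokine (-1.99). The calls of Ccl3, Ccl4 and Cxcl10 were lost without the block (adjusted p = 0.367, 0.145 and 0.666), and that of Cxcl10 also without MYC spinal 3, eRT 2 or eRT 3 (0.173, 0.478 and 0.140). Of 13 migration genes tested 5 were higher and 4 lower. Among those lower were chemokine receptors of monocytes and macrophages: Cx3cr1, with 2 UMIs in members, and Ccr2 and Ccr1, at log2 fold changes of -2.47 and -2.02. Ccr2 missed the threshold without eRT 2 (0.0703) and Ccr1 without eRT 3 (0.0788). Tmem123, Samsn1, Myo1g, Marcksl1 and Marcks were higher, by 4.34, 3.27, 2.64, 2.06 and 1.12, and Marcks lost its call without MYC spinal 3, eRT 2 or eRT 3 (0.493, 0.242 and 0.0799). Il7r, the interleukin-7 receptor, was the gene of the T cell list that could be tested, and it was higher (log2 fold change 2.68 ± 0.80 (SE), adjusted p = 0.00875), though not without eRT 2 (adjusted p = 0.0695) or without the members that carried UMIs of other lineages (0.0570).

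Uptake and pattern receptors were lower in 10 of 12 tested and higher in none, with a median log2 fold change of -3.30. Fcgr3, Fcgr1, Mrc1, Fcgr4 and Tlr2 passed the filter on low counts through the macrophages. Their being lower was largely set by the filter, so their values and the list's count are a description. Fcgr3, a low-affinity IgG receptor, had 0, 0, 81.9 and 0 against 1214, 214, 1018 and 944 CPM (log2 fold change -4.75 ± 0.62 (SE), adjusted p = 1.08e-10). Cd14, the lipopolysaccharide coreceptor, had 0, 56.1, 423 and 0 against 959, 381, 1745 and 1583 CPM, and the mature value of eRT 2 alone lay within the macrophage range (log2 fold change -3.37 ± 0.55 (SE), adjusted p = 3.31e-07). Fcgr1, Mrc1, Fcgr4 and Tlr2 were seen with 2, 2, 1 and 3 UMIs in members, macrophage to mature ratios of 27.4 (95% interval 7.58 to 227), 9.34 (95% interval 2.58 to 77.3), 14.0 (95% interval 2.50 to 553) and 12.7 (95% interval 4.33 to 61.5). Msr1, Fcgr2b, Clec4n and Clec4a2 had log2 fold changes of -3.24, -3.16, -2.70 and -2.27, the last not without eRT 2 (adjusted p = 0.174).

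Macrophage identity genes were low or at 0. Of 6 tested markers outside the rule, all 6 were lower, for example Apoe, with 76.3, 210.3, 178 and 87.1 against 80476, 3967, 24860 and 37210 CPM (log2 fold change -7.40 ± 0.87 (SE), adjusted p = 1.46e-12), and Csf1r, the receptor for colony stimulating factor 1, with 0, 98.1, 0 and 0 against 746, 240.1, 382 and 737 CPM (log2 fold change -4.02 ± 0.61 (SE), adjusted p = 3.11e-08). Maf, a transcription factor of macrophages, had 0 UMIs in the 91 members, at least 6.70-fold lower against 3 UMIs over the group. Trem2, a lipid receptor, and Folr2, a folate receptor, were also at 0, at least 28.8-fold and 4.81-fold lower. Cxcl13, Rnase4, Dusp6, AB124611, Gas6 and Hpgds had no UMI in these members either, with bounds of 4.62, 12.6, 8.93, 5.91, 6.36 and 8.67. Cxcl13 and Folr2 did not pass DESeq2 (adjusted p = 0.323 and 0.438). Outside the 4 tumors, the members of eRT 1 had 1 to 3 UMIs of Rnase4, Dusp6, AB124611 and Hpgds. The macrophages were chosen by C1q, so genes that go with C1q in macrophages are favored by that choice. Genes at 0 in the members passed the filter on low counts through the macrophages, so their being lower is a description.

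In the MHC class I pathway 4 of 13 tested genes were higher and none lower, the proteasome activators Psme2 and Psme1 by 2.17 and 1.55 and the immunoproteasome subunits Psmb9 and Psmb8 by 1.33 and 1.28. The last 3 lost their calls without eRT 2 (adjusted p = 0.113, 0.203 and 0.346), Psmb9 also without eRT 3 (0.0753) and Psmb8 without MYC spinal 3 (0.0616). In the class II pathway 4 of 9 were lower and 1 higher: the protease Ctss, H2-DMb1, H2-DMa and H2-Ab1 fell, at log2 fold changes of -2.55, -2.58, -1.95 and -2.08, and H2-DMb2 rose, at 1.96. H2-DMa missed the threshold without MYC spinal 1 or eRT 3 (0.0553 and 0.186), H2-Ab1 likewise (0.427 and 0.344), and H2-DMb2 without MYC spinal 3 (0.371). Cd74, H2-Aa and H2-Eb1 did not pass (log2 fold changes of -1.47, -1.25 and -1.41, adjusted p = 0.132, 0.159 and 0.0853). Interferon response genes were lower in 4 of 14 tested and higher in 1, Gbp2, whose call was lost without MYC spinal 3, eRT 2 or eRT 3 (0.222, 0.154 and 0.289). Oas1a, one of the 4, lost its call without the same tumors (0.330, 0.185 and 0.109), under DESeq2 (0.130) and without TMM factors (0.0822). Ifit3 was seen with 1 UMI in the members of the 4 tumors compared and Irf7, the regulator of type I interferon genes, had a log2 fold change of -1.93, and the levels of both in macrophages were highest in MYC spinal 1. None of the 9 proliferation genes tested passed. Of the vesicle list, chosen as above, 10 of 12 were higher, Cst3, a protease inhibitor, with 22266, 10318, 20392 and 35898 against 10568, 2095, 2490 and 3855 CPM, a call lost without MYC spinal 3 or eRT 2 (0.0973 and 0.174). Anxa3 and Rabgef1 were not called, at log2 fold changes of 0.69 and 1.42.

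Mature DC of eRT and MYC spinal tumors were compared over 2 tumors each, which asks whether the state differs with the tumor type. The MYC spinal tumors compared were both Rosa26-cre and the eRT both Sox2-cre, so that tumor type and Cre driver cannot be told apart here. Of 708 genes tested 1 was called, a share of 0.141%, and 49 were at an unadjusted p under 0.05 (DESeq2 also called 1). With this few cells a moderate change, and often a larger one, could go undetected. In simulated counts for this comparison, 0% of genes changed by a log2 fold change of 1 were recovered. At changes of 2 and 4 the shares were 28% and 99.5%. The called gene was Meg3 (chr12:109541001-109571726 (+ strand)), a maternally expressed long noncoding RNA, whose level was 534 CPM in MYC spinal 1, 1023 CPM in MYC spinal 3, 6.83 CPM in eRT 2 and 0 CPM in eRT 3 (adjusted p = 0.0132). It lay in 7 members of the MYC spinal tumors compared, with 87 UMIs, and 1 UMI was seen in the eRT compared. Over these tumors the MYC spinal to eRT ratio was 141 (95% interval 24.6 to 5625). The tumors left out went the other way, with 0 CPM in the members of MYC spinal 2 and 161 CPM in those of eRT 1 (5 UMIs in 1 cell). Of the 8 members with osteoclast or tumor UMIs 6 carried Meg3, against 3 of the other 90. Without those 8 cells Meg3 was at 0 CPM in MYC spinal 1 and 506 CPM in MYC spinal 3, it did not enter the test, and 0 genes were called (9 at an unadjusted p under 0.05). The count also rested on single tumors: without MYC spinal 1 it was 19, without MYC spinal 3 it was 43, without eRT 3 it was 47 and without eRT 2 it was 0 (25 at an unadjusted p under 0.05). Meg3 itself did not pass without MYC spinal 3 or eRT 2 (adjusted p = 0.431 and 0.120).

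No gene of the 11 lists was called between the subtypes. Medians of the log2 fold change, eRT over MYC spinal, were 0.69 for 5 costimulation genes, 1.15 for 3 regulatory genes, 0.99 for 6 migration genes and 0.74 for 7 NF-kB genes. They were 1.11 for 8 class II genes, 0.33 for 11 class I genes, 0.61 for 10 vesicle genes, 0.21 for 2 interferon genes and -0.55 for 4 chemokine genes, beside -0.05 for all genes. The single proliferation gene tested stood at -1.29, and no uptake receptor could be tested. Cd200 was the listed gene with the smallest unadjusted p, at 191 and 126 CPM in the MYC spinal tumors and 423 and 436 CPM in eRT (log2 fold change 1.55 ± 0.56 (SE), adjusted p = 0.708). The members of the tumors left out, with 4 and 3 cells, had 206 CPM (MYC spinal 2) and 0 CPM (eRT 1).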

How the data were processed

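Living cells were sorted from 6 dissociated tumors and sequenced with 10x 3′ chemistry. The deposited tables hold raw UMI counts per gene and cell, which the authors made with Cell Ranger 2.0.2 on mm10, and in each table every gene was present in at least 3 cells. UMIs were summed per tumor and kind of cell, scaled by TMM and tested with edgeR 4.0.16 (R 4.3.3; filterByExpr, quasi-likelihood test, Benjamini-Hochberg adjustment), with the tumor as a block where kinds of cells of the same animal were compared. A tumor entered with at least 5 cells of each kind, since only 2 tumors reached the preferred 10. Shares were compared with the exact permutation test of scipy 1.17.1. Counting intervals are exact, at 95%, and cover counting error only. The members, marker genes and gene lists were chosen with earlier results of these data known. Beside the lists, the text names for each comparison and direction the 10 genes with the largest fold change that passed, moved the same way in every tumor and had a mean log2 CPM of at least 5. Genes of the cell rules stayed in the fits but out of the counts. Alternatives were DESeq2 1.42.0, no TMM factors, no filter, no block, each tumor left out, stricter cells and markers, thinning to 1000 UMIs, doublet scores, and members with UMIs of other lineages left out. The one that left out the 8 cells with osteoclast or tumor UMIs was chosen after seeing the data. The fits were tested on simulated data. Of genes changed by a log2 fold change of 1, they recovered 31.5% against conventional DC, 0% against macrophages and 0% between tumor types. At 2 the shares were 95.5%, 62.5% and 28%. No per-sample column was left unused (0). Lists held genes not in the tables (Ido1, Ccl19, Ccl21a, Clec7a and Rab9b), which were not analysed here. Some genes of the lists are not reported here.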

Additional observations from a re-analysis of the deposited data

Results flagged for a closer look

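Ogn (osteoglycin), a gene of the rhabdoid tumor marker list, moved in opposite directions between the tumor types when mature DC were set against complement-high macrophages. Its level in the members was 534 CPM in MYC spinal 1, where all 14 UMIs came from 1 cell, and 84.1 CPM in MYC spinal 3, against 5.06 and 15.9 CPM in the macrophages. In eRT 2 and 3 it was 0 CPM in the members, against 39.5 and 4.59 CPM. On the log2(CPM + 10) scale the eRT effect minus the MYC spinal effect was -4.95, and this difference was not tested. Over all 4 tumors Ogn was called higher in mature DC (edgeR, adjusted p = 0.0257), and without the 8 members that carried osteoclast or tumor UMIs it could not be tested.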

How the results depend on the processing

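The tumor block pairs cells of the same animal. Without this replicate block 63 genes were called against conventional DC and 264 against macrophages, in place of 185 and 647. Leaving out a tumor in turn gave 61 to 197 and 336 to 553 calls, with the lowest counts without eRT 2. Thinning to 1000 UMIs gave 72 calls against conventional DC, of 278 genes tested. Between tumor types, the single call became 17 with every gene kept, 8 with all 3 markers required, 0 after thinning, 0 without members with UMIs of other lineages, 0 without the 8 cells, and 0 to 47 with a tumor left out. In these sets edgeR had 9, 4 and 9 genes at an unadjusted p under 0.05 after thinning and without the other lineages or the 8 cells. The difference in share ranged from -0.134 to 1.14 points, turning to -0.134 without eRT 2. Gene by gene, 49 of 695 alternatives against conventional DC and 95 of 1342 against macrophages lost a call, and none of them reversed a direction. Alternatives in which a gene could no longer be tested are not in these totals. Against conventional DC, 26 of the named genes could still be tested after thinning, and 53 with the stricter cells. DESeq2 moved the median log2 fold change of all genes by 0.106 against conventional DC, and leaving out TMM factors moved it by 0.181 against macrophages, where the called genes that were higher went from 36.5% to 43.7%. The cause was not tested. Depth limits genes with few UMIs in 7 to 55 cells per tumor.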

Other observations

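The 24 cells that met the rule but for a UMI of Cd3d, Cd3e or Cd3g also carried the markers of mature DC. At least 3 of the 11 markers outside the rule were detected in 16 of 24 (66.7%) at a median of 2602 UMIs, and in 9 of 23 (39.1%) after thinning to 1000 UMIs. They lay in MYC spinal 1, 2 and 3 with 4, 2 and 7 cells and in eRT 2 with 11. Whether they are mature DC with T cell RNA, or doublets, was not tested.

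Ptprc, the gene of CD45, had a UMI in few of the 98 members: in 1 of 7, 1 of 4 and 3 of 22 members of MYC spinal 1, 2 and 3, and in 1 of 3, 12 of 55 and 0 of 7 members of eRT 1, 2 and 3. It was detected in 39 of 75 conventional DC (52.0%), and after thinning to 1000 UMIs in 9 of 94 members (9.57%) and 17 of 70 conventional DC (24.3%). Its level in members was lower than in conventional DC of the same tumor (log2 fold change -1.96 ± 0.51 (SE), edgeR, adjusted p = 0.0106) and lower than in macrophages (-1.89 ± 0.51 (SE), adjusted p = 0.00290).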
